A study of Rattus norvegicus with 18 samples.

Results

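PDS, taken here to be pyridostatin because the labels give only the abbreviation, and Phen-DC3 were each given to cultured rat nucleus pulposus cells, and the question taken up here is which genes the compounds changed differently and which they changed alike. The comparison used 12 of the 18 RNA-seq libraries of the series, chosen by their titles, 3 in each of 4 groups. They were cells given PDS, the control cells whose titles name PDS, cells given Phen-DC3, and the control cells whose titles name Phen-DC3. Exposure lasted 24 hours in both sets, and this 1 pair of compounds was compared. The other 6 libraries, Braco-19 and its controls, entered the statistical model and added to its estimate of the spread.

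All groups shared 1 background. The cells came from disc tissue of Sprague Dawley rats aged 8 weeks and were grown in DMEM with serum, with no genetic change named in the labels. Nothing used here states the doses, the liquid given to the controls, the sex of the animals or the passage number. Each compound has its own control group, and nothing states whether both sets came from the same cultures or days. The compound, its dose and the culture set therefore cannot be told apart in any difference between the effects. The study describes the replicates of a group as biological but does not say whether separate animals gave them, so the p-values measure the spread between these libraries, which may be technical.

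As background, a G-quadruplex is a stack of guanine tetrads that guanine-rich DNA or RNA can fold into, and pyridostatin and Phen-DC3 bind and stabilise it. Pyridostatin has a pyridine dicarboxamide core joined to a pair of quinolines that carry aminoalkoxy side chains. Phen-DC3 has a phenanthroline dicarboxamide core joined to a pair of N-methylated quinolinium rings, which carry a permanent positive charge. In other cell systems, stabilised quadruplexes are known to stall replication forks and polymerases, to cause DNA breaks and to alter transcription of some genes with guanine-rich promoters. Nucleus pulposus cells make the gel-like core of the intervertebral disc, a hypoxic tissue whose matrix is kept by a balance of collagen and proteoglycan synthesis and of proteases.

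The libraries held 15715121 to 17290095 counts. Genes longer than 5000 bp took 8.67 ± 0.29% of the counts with PDS and 8.66 ± 0.59% in PDS controls, against 7.99 ± 0.52% with Phen-DC3 and 9.98 ± 0.74% in Phen-DC3 controls (SD, n = 3 each). The Phen-DC3 libraries and their controls did not overlap in this share, while the PDS libraries and their controls did. The median SD of log2 CPM (counts scaled to the TMM-adjusted library size) between replicates was 0.094 with PDS, 0.118 in PDS controls, 0.134 with Phen-DC3 and 0.157 in Phen-DC3 controls. Tbxt, Krt19, Shh and Noto, markers that define notochordal and nucleus pulposus cells, were at 0 in the 12 libraries, and Acan, the main proteoglycan core protein of the disc, averaged 0.217 CPM with PDS, 0.180 CPM in PDS controls, 0.220 CPM with Phen-DC3 and 0.140 CPM in Phen-DC3 controls. Other genes of the notochordal list were expressed, among them Krt8, at a mean of 11.9 CPM with PDS, 14.6 CPM in PDS controls, 15.6 CPM with Phen-DC3 and 12.5 CPM in Phen-DC3 controls. Krt18 stayed at or below 0.0594 CPM and Foxa2 at or below 0.296 CPM in each library. Of the 14 list members 8 passed the filter on low counts, and the list summed to 798 to 956 CPM with PDS, 1047 to 1142 CPM in PDS controls, 1016 to 1089 CPM with Phen-DC3 and 646 to 990.5 CPM in Phen-DC3 controls, led by Lgals3 and Basp1. By the edgeR test described below, PDS was called at neither Lgals3 nor Basp1 (adjusted p = 0.15 and 0.37). Cdh2 went the other way and rose with PDS (adjusted p = 0.019), from a mean of 23.5 to 31.0 CPM. The means of Ca3 and Foxf1 were also higher with PDS than in its controls. Col1a1, the fibroblast collagen, averaged 1113 ± 52.8 CPM with PDS, 1356 ± 232 CPM in PDS controls, 1166 ± 143 CPM with Phen-DC3 and 1413 ± 55.6 CPM in Phen-DC3 controls (SD, n = 3 each). The summed CPM of 13 leukocyte markers was 113 to 122 with PDS, 108 to 114 in PDS controls, 108 to 118 with Phen-DC3 and 95.6 to 107 in Phen-DC3 controls, with Ptprc, C1qa, C1qb and Cd163 at 0. Nearly all of the leukocyte sum was Cd14, at a mean of 109 CPM over the 12 libraries. Only 3 of the 13 markers passed the filter on low counts. The sum of 8 osteoblast markers, nearly all of it Spp1 (osteopontin), was 5082 to 5757 CPM with PDS, 3180 to 3909 CPM in PDS controls, 3774 to 4386 CPM with Phen-DC3 and 3801 to 4927 CPM in Phen-DC3 controls, with Dmp1 at 0. For 7 Schwann and neural markers the sum was 38.9 to 46.9 CPM with PDS, 55.0 to 65.7 CPM in PDS controls, 59.2 to 70.5 CPM with Phen-DC3 and 56.4 to 58.5 CPM in Phen-DC3 controls, with Sox10 at 0. Most of the neural sum was S100b, at a mean of 50.1 CPM over the 12 libraries. PDS libraries and their controls did not overlap in the notochordal, osteoblast, neural, chondrocyte and skeletal muscle sums. The chondrocyte sum was 73.0 to 83.3 CPM with PDS, 91.8 to 96.4 CPM in PDS controls, 94.7 to 103 CPM with Phen-DC3 and 96.4 to 116 CPM in Phen-DC3 controls. Most of it was Hapln1, at a mean of 55.5 CPM with PDS and 67.0 CPM in PDS controls, where PDS was not called (adjusted p = 0.12). Col2a1, described below, came next and was also lower with PDS. Other members went the other way, with higher means of Sox9, Comp and Acan with PDS than in its controls. For skeletal muscle markers the sum was 1.20 to 1.53 CPM with PDS and 2.28 to 2.78 CPM in PDS controls. Only 1 of these 7 markers passed the filter, Acta1, and PDS was not called at it (adjusted p = 0.33). Phen-DC3 libraries and their controls did not overlap in the notochordal, leukocyte, neural and smooth muscle sums. The smooth muscle sum was 369 to 416 CPM with Phen-DC3 and 322 to 359 CPM in Phen-DC3 controls. Most of it was Acta2, whose own ranges overlapped, at 295.4 to 338.4 CPM with Phen-DC3 and 257.6 to 301.1 CPM in Phen-DC3 controls. Among the other members that passed the filter, the means of Cnn1, Mcam and Cspg4 were higher with Phen-DC3 than in its controls. Those of Myh11 and Des were lower. The share of all tested genes whose groups of 3 libraries separate in this way was not counted. These gaps are therefore described only, and are not read as changes of cell type. Their part in the gene groups below was not tested.

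The effects of the compounds differed at 2862 of 14184 tested genes (20.2%). The difference is the log2 fold change of PDS over its controls minus that of Phen-DC3 over its controls, tested by edgeR's quasi-likelihood test at a Benjamini-Hochberg adjusted p under 0.05. At 1761 genes (12.4%) it was positive, called higher here, and at 1101 genes (7.76%) it was negative, called lower. Against its own controls, PDS changed 1148 genes (8.09%), of which 728 (5.13%) rose and 420 (2.96%) fell. Phen-DC3 changed 1136 genes (8.01%), of which 311 (2.19%) rose and 825 (5.82%) fell. The Phen-DC3 calls rest on the spread pooled over the 6 groups of the series. With edgeR fitted to the 12 libraries alone, the difference was called higher at 1132 genes and lower at 1000, but Phen-DC3 changed 0 genes in each direction, with 1809 higher and 1912 lower at an unadjusted p under 0.05. DESeq2 on all libraries called 836 higher and 1270 lower with Phen-DC3, and limma's voom with weights per group 0 and 2. Over the genes called higher, the median effect was 0.299 for PDS and -0.348 for Phen-DC3. Over the genes called lower, it was -0.283 for PDS and 0.279 for Phen-DC3. The effects behind a difference thus lay, at the median, on opposite sides of 0, and these medians share libraries with the difference itself.

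**Figure D1:**
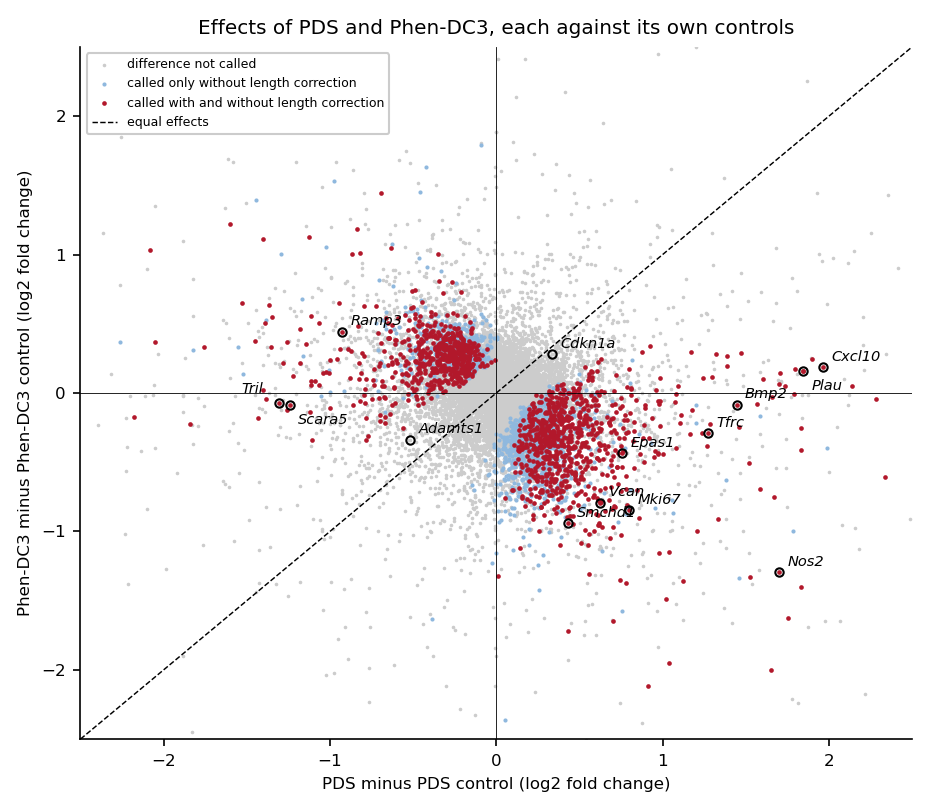
Effect of PDS over its controls (x axis, log2 fold change) against the effect of Phen-DC3 over its controls (y axis, log2 fold change), 1 point per tested gene, with 102 genes beyond an axis limit of 2.5 not drawn. Red points are called different with and without length correction, blue points only without it, the dashed line marks equal effects, and the genes named in the plot include Cxcl10, Plau and Tfrc far to the right and Scara5 and Tril far to the left, all with Phen-DC3 effects between -0.29 and 0.18.

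The counts moved with single libraries and with gene length. Genes called higher numbered 984 without Phen-DC3 replicate 1, 1012 without PDS replicate 3, 1044 and 1082 without Phen-DC3 control replicates 1 and 2, and 2416 without Phen-DC3 control replicate 3. Genes called lower numbered 463, 499, 592 and 757 without the first 4 of these, 600 without Phen-DC3 replicate 2, 634 and 651 without PDS control replicates 2 and 3, 714 without PDS replicate 2, and 1802 without Phen-DC3 control replicate 3. Leaving out each of the other libraries moved a count by less than 1.5 times. The genes called higher were long, with a median gene model of 3971 bp, and the genes called lower were short, with 1514 bp, against 2248 bp over all tested genes. Of the genes over 10000 bp, 48.2% were called higher and 0% lower. Of those under 500 bp, 1.24% were called higher and 8.25% lower.

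The slope with length was carried more by Phen-DC3 than by PDS. Across genes, which are not independent replicates, Spearman's rank correlation with length was -0.443 for the Phen-DC3 effect, 0.174 for the PDS effect and 0.367 for the difference. An offset that removes each library's trend with length brought that of the difference to -0.041. With it, 971 genes (6.85%) were called higher and 917 (6.47%) lower, and 1379 genes were called in the same direction with and without it, 789 of them higher and 590 lower. Phen-DC3 against its own controls then changed 47 genes (0.331%), 22 higher (0.155%) and 25 lower (0.176%). PDS changed 1240 (8.74%), 673 higher (4.74%) and 567 lower (4%). Compound, dose and library preparation cannot be told apart as sources of the length trend, so length-corrected values are given below for most lists. The call of the difference held with the correction at each gene named below as called, unless stated. The compounds' own calls held to unequal degrees, at 1026 of the 1148 genes for PDS and 32 of the 1136 for Phen-DC3. Among the Phen-DC3 calls given below for single genes, only those of Ifih1, Skil, Smchd1 and Dhodh held with it, and among the PDS calls those of Dhodh and Upp1 did not.

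**Figure D2:**
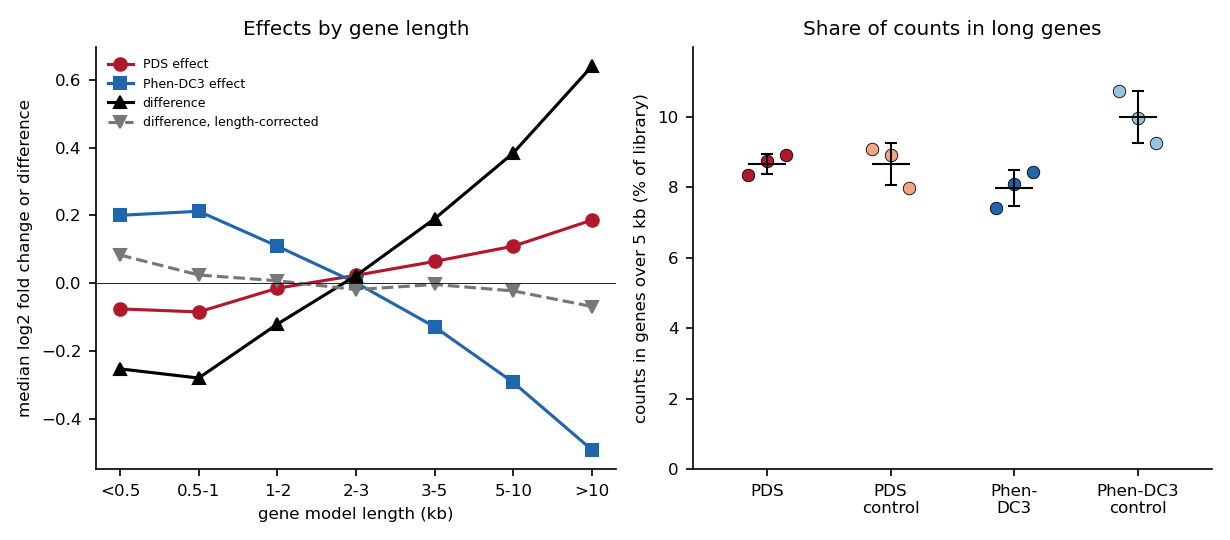
Left, median log2 effect or difference (y axis) in bins of gene model length in kb (x axis), for PDS, Phen-DC3, the difference, and the difference after length correction. Right, percent of counts in genes over 5 kb (y axis) in each library by group, with the mean and SD of 3 libraries. The difference is -0.253 in the shortest bin and 0.64 in the longest, and lies between -0.069 and 0.083 after correction.

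Many genes of the interferon response rose with PDS, and few passed the test with Phen-DC3. Of 39 tested genes of this list, 18 were called higher and 3 lower for the difference, with a median of 0.592 against 0.031 over all tested genes. After length correction 17 were higher and 1 lower, with a median of 0.539. Against its own controls, PDS raised 19 and lowered 0, with a median of 0.505. Phen-DC3 raised 1 and lowered 1, with a median of 0.080. Without PDS replicate 3 or Phen-DC3 replicate 2, 14 were called higher, and without PDS control replicate 2, PDS replicate 3 or Phen-DC3 replicate 1 the genes called lower numbered 1.

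Cxcl10, a chemokine induced by interferon that attracts T cells, had 177, 162 and 182 CPM with PDS and 35.1, 39.6 and 58.3 CPM in PDS controls. It had 45.4, 40.5 and 43.8 CPM with Phen-DC3 and 47.4, 23.7 and 43.0 CPM in Phen-DC3 controls. The PDS libraries stood above the other 9, which overlapped. The PDS effect was 1.97 ± 0.23 (SE, adjusted p = 0.00017), the Phen-DC3 effect 0.18 ± 0.23 (SE, adjusted p = 0.64), and the difference 1.78 ± 0.33 (SE, adjusted p = 0.0043), or 2.02 after length correction.

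Usp18, the protease that removes ISG15 from proteins and dampens interferon signalling, had 15.5, 19.7 and 21.8 CPM with PDS and 4.78, 4.71 and 5.81 CPM in PDS controls. In the Phen-DC3 set it had 6.67, 4.69 and 3.86 CPM with the compound and 4.24, 4.24 and 4.32 CPM in controls. Again the PDS libraries alone were high, and the difference was 1.65 ± 0.26 (SE, adjusted p = 0.00077). Oasl, of the oligoadenylate synthetase family, differed by 1.64 ± 0.27 (SE, adjusted p = 0.0013), and Ifit3, which takes part in the antiviral IFIT complex, by 1.63 ± 0.39 (SE, adjusted p = 0.011). The guanylate-binding protein Gbp5 differed by 1.14 ± 0.19 (SE, adjusted p = 0.0012) and the nucleotide kinase Cmpk2 by 1.19 ± 0.19 (SE, adjusted p = 0.00091). For these 4 genes the Phen-DC3 effects lay between 0.06 and 0.17, none of them called. Ifih1, the cytosolic sensor of double-stranded RNA also called MDA5, came to its difference of 1.27 ± 0.22 (SE, adjusted p = 0.0012) in another way. It fell with Phen-DC3, by 0.82 on the log2 scale (adjusted p = 0.011), and its PDS effect was 0.44 ± 0.15 (SE, adjusted p = 0.078).

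Inflammatory genes followed a similar but more mixed pattern. Of 40 tested, 12 were called higher and 4 lower, with a median of 0.243, and after length correction 14 and 3. PDS raised 15 and lowered 4, and Phen-DC3 raised 2 and lowered 0. Those called higher came to 8 when PDS replicate 2 or Phen-DC3 replicate 2 was left out. Ccl2, a monocyte chemokine, had 1925, 1806 and 1942 CPM with PDS and 1243, 1054 and 1330.0 CPM in PDS controls, against 1322, 1285 and 1459 CPM with Phen-DC3 and 1490.0, 1368 and 1194 CPM in Phen-DC3 controls. PDS libraries were the highest of the 12. The difference was 0.64 ± 0.12 (SE, adjusted p = 0.0026), and 0.94 after length correction. Il6, the interleukin of the acute-phase response, differed by 1.26 ± 0.30 (SE, adjusted p = 0.009), with 7.71, 8.41 and 8.28 CPM with PDS and 3.81, 2.83 and 4.67 CPM in PDS controls.

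The T-cell chemokine Cxcl11 differed by 1.68 ± 0.31 (SE, adjusted p = 0.002). Tnfaip3, the A20 protein that restrains NF-kB, differed by 0.95 ± 0.19 (SE, adjusted p = 0.003). Il1rn, which encodes the antagonist of the interleukin-1 receptor, went the other way. Its values were 8.83, 9.74 and 7.22 CPM with PDS and 20.1, 20.3 and 21.4 CPM in PDS controls, and 22.2, 25.8 and 28.6 CPM with Phen-DC3 and 30.0, 27.2 and 26.2 CPM in Phen-DC3 controls. Libraries of PDS cells were the lowest of the 12, and the difference was -1.14 ± 0.22 (SE, adjusted p = 0.0026). Nos2, the inducible nitric oxide synthase, had the largest difference among the genes chosen for size, 2.99 ± 0.66 (SE, adjusted p = 0.01). It had 108, 91.9 and 38.7 CPM with PDS, 24.5, 34.5 and 14.5 CPM in PDS controls, 25.5, 16.4 and 21.7 CPM with Phen-DC3 and 74.2, 36.2 and 45.1 CPM in Phen-DC3 controls. PDS raised it by 1.70 (adjusted p = 0.041), and its Phen-DC3 effect was -1.29 ± 0.47 (SE, adjusted p = 0.098). Replicates of 1 group spread widely for this gene, and PDS replicate 3 lay within the range of the Phen-DC3 controls.

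**Figure D3:**
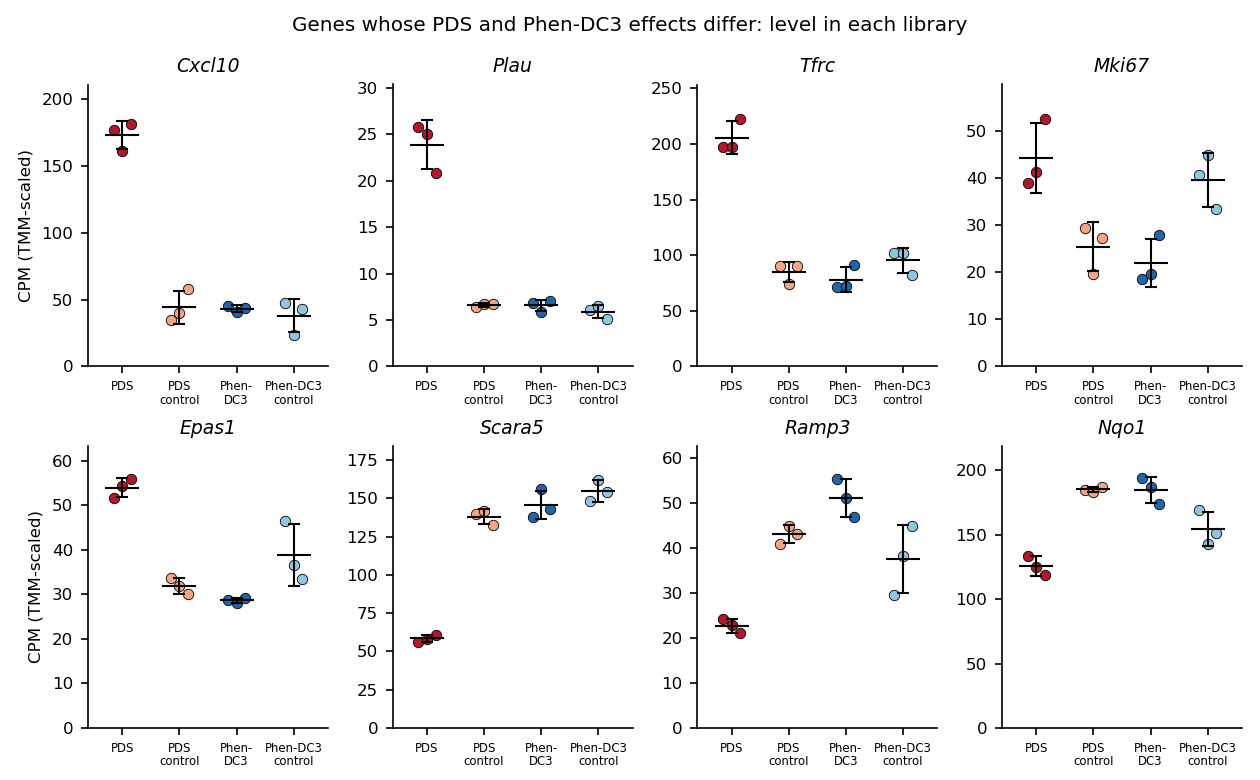
Level of 8 genes in each library (y axis, CPM on TMM-scaled library sizes) by group, with the mean and SD of 3 libraries as black lines. Cxcl10, Plau, Tfrc and Scara5 set the PDS libraries apart from the other 9, whereas the Phen-DC3 libraries also lay apart from their controls for Mki67, Epas1, Ramp3 and Nqo1, of which the first 3 were called in that comparison and Nqo1 was not (adjusted p = 0.058).

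Of the lists described here, mitosis and cytokinesis had the largest share of genes called. Of 36 tested, 25 were called higher and 0 lower for the difference, with a median of 0.606, and 22 and 0 after length correction, with a median of 0.502. PDS raised 30 and lowered 0, with a median of 0.523, and Phen-DC3 raised 1 and lowered 4, with a median of -0.079. Between 23 and 25 were called higher without any 1 library. The median of PDS controls minus Phen-DC3 controls over the list was 0.011, and that of PDS cells minus Phen-DC3 cells 0.572.

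Tpx2, which activates Aurora A at the spindle, had 156, 147 and 164 CPM with PDS and 112, 86.7 and 103 CPM in PDS controls. It had 92.3, 99.2 and 96.9 CPM with Phen-DC3 and 119, 114 and 102 CPM in Phen-DC3 controls. All 3 PDS libraries were above the rest, with a difference of 0.84 ± 0.12 (SE, adjusted p = 0.00035). Prc1, which bundles microtubules of the central spindle, differed by 0.66 ± 0.10 (SE, adjusted p = 0.00041). The spindle protein Nusap1 differed by 0.93 ± 0.14 (SE, adjusted p = 0.00062) and the chromosome-bound kinesin Kif4a by 0.90 ± 0.14 (SE, adjusted p = 0.00071). Mki67, the proliferation marker that coats mitotic chromosomes, moved in both sets. It had 38.9, 41.4 and 52.7 CPM with PDS and 29.5, 19.6 and 27.3 CPM in PDS controls, and 18.6, 19.6 and 27.9 CPM with Phen-DC3 and 40.6, 44.9 and 33.5 CPM in Phen-DC3 controls. Neither pair of groups overlapped. It rose with PDS by 0.80 (adjusted p = 0.011), fell with Phen-DC3 by 0.85 (adjusted p = 0.018), and differed by 1.65 ± 0.25 (SE, adjusted p = 0.0013), or 1.05 after length correction for its gene model of 9880 bp.

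The promoters of Plau, described with the proteases below, and of Mki67 are shown because they are the genes with the largest difference, among those called higher with and without length correction, at a mean log2 CPM of at least 3, whose RefSeq promoter window holds a guanine motif of 4 runs of 3 or more G with loops of 1 to 7 bases, searched on both strands. Each line gives 300 bases, 5′ to 3′ on the strand of the gene, from 250 bases before to 50 after the RefSeq start in the GRCr8 build, and capitals mark the motif. The Plau window lies at chr15:3511938-3512237 and the Mki67 window at chr1:199952544-199952843, both on the minus strand of that assembly.
Plau: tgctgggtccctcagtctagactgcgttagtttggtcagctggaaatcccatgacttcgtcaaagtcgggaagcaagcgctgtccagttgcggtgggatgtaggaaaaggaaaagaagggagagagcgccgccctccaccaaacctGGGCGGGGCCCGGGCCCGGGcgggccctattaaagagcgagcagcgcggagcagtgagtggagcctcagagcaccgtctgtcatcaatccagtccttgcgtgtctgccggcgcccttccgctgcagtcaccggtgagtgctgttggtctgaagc
Mki67: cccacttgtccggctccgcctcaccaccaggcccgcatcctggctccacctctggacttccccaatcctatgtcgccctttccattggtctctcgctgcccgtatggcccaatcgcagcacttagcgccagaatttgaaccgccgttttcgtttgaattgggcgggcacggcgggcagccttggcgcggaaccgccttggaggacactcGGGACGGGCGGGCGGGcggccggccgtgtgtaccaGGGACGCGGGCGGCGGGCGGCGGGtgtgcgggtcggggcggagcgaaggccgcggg
A match describes the letters and is no evidence of a folded structure. Of the 10 genes with the largest positive difference chosen this way, 7 had a window in the table and 3 of these held the motif, against 0 of 8 for the 10 with the largest negative difference. Of the tested genes with a RefSeq window, 9667 in all, 25.2% held the motif, against 16.6% of the 33469 windows in the table. The share was 28.1% of 1318 genes called higher, 21.5% of 846 called lower and 25.1% of 7503 not called. Among genes called in the same direction after length correction too, it was 29.3% of 560 higher and 23.8% of 450 lower. It was 46.7% of 15 genes that responded alike and 39.7% of 63 genes called in opposite directions, both groups described below.

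Of 47 DNA replication genes tested, 7 were called higher and 1 lower, shares close to or below the 12.4% and 7.76% of all tested genes, with a median of 0.104, and 9 and 2 after length correction. The genes called higher numbered 4 without Phen-DC3 control replicate 1. Mcm4, a subunit of the replicative helicase, differed by 0.58 ± 0.12 (SE, adjusted p = 0.0047), and Tyms, the thymidylate synthase, by 0.50 ± 0.13 (SE, adjusted p = 0.012). Pola1, the catalytic subunit of the primase-associated polymerase, had 10.4, 12.1 and 15.7 CPM with PDS and 9.01, 7.13 and 11.1 CPM in PDS controls, and 6.91, 6.15 and 9.62 CPM with Phen-DC3 and 13.5, 12.6 and 13.7 CPM in Phen-DC3 controls. The PDS groups overlapped and the Phen-DC3 groups did not. Pola1 fell with Phen-DC3 by 0.81 (adjusted p = 0.016), its PDS effect was 0.49 ± 0.17 (SE, adjusted p = 0.089), and the difference was 1.30 ± 0.25 (SE, adjusted p = 0.0027).

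In the list of homologous recombination, Fanconi and checkpoint genes, 14 of 39 were called higher and 0 lower, with a median of 0.407. After length correction 5 were higher and 0 lower, with a median of 0.201. PDS raised 6 and lowered 0, and Phen-DC3 raised 0 and lowered 3. Those called higher came to 8 or 9 when 1 of these was left out: PDS replicate 3, PDS control replicate 2, Phen-DC3 replicate 2 or Phen-DC3 control replicate 1 or 2. Fanci, part of the complex that marks crosslinked DNA, differed by 0.68 ± 0.13 (SE, adjusted p = 0.003), and 0.46 after length correction (adjusted p = 0.016). Brca1, needed for repair of breaks by recombination, differed by 1.07 ± 0.21 (SE, adjusted p = 0.0034), and 0.64 after it (adjusted p = 0.027). The checkpoint kinases Atm and Atr have long transcripts, and their differences of 0.87 (adjusted p = 0.0034) and 1.05 (adjusted p = 0.0043) were no longer called after correction, at 0.17 (adjusted p = 0.49) and 0.51 (adjusted p = 0.067).

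Among 31 targets of p53, the transcription factor activated by DNA damage, 4 were called higher and 1 lower. These shares were near or below the 12.4% and 7.76% of all tested genes. The median was 0.058 against 0.031 over all tested genes. Without Phen-DC3 control replicate 3, 7 were higher and 3 lower, and without any 1 of 9 other libraries 0 were lower. PDS raised 8 and lowered 1, and Phen-DC3 raised 1 and lowered 0. Mdm2, the ubiquitin ligase that degrades p53, had 216, 221 and 226 CPM with PDS and 151, 141 and 151 CPM in PDS controls. It had 145, 145 and 168 CPM with Phen-DC3 and 175, 161 and 139 CPM in Phen-DC3 controls. PDS libraries were the highest of the 12, and the difference was 0.63 ± 0.12 (SE, adjusted p = 0.0021). The antiproliferative gene Btg2 differed by 0.44 ± 0.11 (SE, adjusted p = 0.012), a call lost without Phen-DC3 control replicate 2 (adjusted p = 0.05), with the replicate number as a block (adjusted p = 0.052) and in 3 of the fits that combine length correction with another change. Cdkn1a, the p21 inhibitor of cyclin-dependent kinases, belongs to the genes that changed alike and is described with them.

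Genes of the hypoxia response and glycolysis were called higher with PDS far more often than lower. Of 38 tested, 15 were called higher and 1 lower, with a median of 0.278, and 13 and 1 after length correction. PDS raised 18, lowered 1 and left 19 uncalled, whereas Phen-DC3 raised 1 and lowered 1. Epas1, which encodes the hypoxia-inducible factor HIF-2 alpha, had 51.7, 54.4 and 56.0 CPM with PDS and 33.7, 31.9 and 30.1 CPM in PDS controls. It had 28.8, 28.1 and 29.2 CPM with Phen-DC3 and 46.5, 36.6 and 33.4 CPM in Phen-DC3 controls. Neither pair of groups overlapped, and the directions were opposite, with a PDS effect of 0.76 ± 0.10 (SE, adjusted p = 3.2e-05), a Phen-DC3 effect of -0.44 ± 0.10 (SE, adjusted p = 0.016) and a difference of 1.20 ± 0.14 (SE, adjusted p = 5.4e-05).

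Egln3, a prolyl hydroxylase that marks HIF subunits for decay, had 146, 147 and 145 CPM with PDS and 78.8, 80.5 and 76.5 CPM in PDS controls, and 90.0, 88.7 and 95.9 CPM with Phen-DC3 and 103, 99.8 and 88.5 CPM in Phen-DC3 controls. Libraries of PDS cells were above the other 9, and the difference was 0.98 ± 0.12 (SE, adjusted p = 0.00012). Bnip3, a mitophagy receptor, differed by 0.78 ± 0.11 (SE, adjusted p = 0.00041), and Vegfa, the endothelial growth factor, by 0.67 ± 0.13 (SE, adjusted p = 0.0026). Angptl4, a lipase inhibitor also induced by hypoxia, was the gene called lower. It had 268, 262 and 263 CPM with PDS and 375, 402 and 378 CPM in PDS controls, and 395, 393 and 354 CPM with Phen-DC3 and 331, 347 and 360.5 CPM in Phen-DC3 controls, with a difference of -0.68 ± 0.10 (SE, adjusted p = 0.00035).

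Iron uptake gave the smallest adjusted p-values of the difference among the genes named here, in both directions. Tfrc, the transferrin receptor, had 198, 197 and 223 CPM with PDS and 90.2, 74.5 and 89.9 CPM in PDS controls. It had 71.0, 72.6 and 90.8 CPM with Phen-DC3 and 102, 102 and 82.5 CPM in Phen-DC3 controls. PDS raised it by 1.28 (adjusted p = 1.2e-07), the Phen-DC3 effect was -0.29 ± 0.10 (SE, adjusted p = 0.076), and the difference was 1.56 ± 0.14 (SE, adjusted p = 2.9e-06), or 1.28 after length correction. Scara5, a ferritin receptor of stromal cells, had 56.1, 58.2 and 61.0 CPM with PDS and 139.8, 142 and 133 CPM in PDS controls, against 138, 156 and 143 CPM with Phen-DC3 and 148, 162 and 154 CPM in Phen-DC3 controls. It fell with PDS by 1.24 (adjusted p = 4.7e-09), its Phen-DC3 effect was -0.09 ± 0.07 (SE, adjusted p = 0.46), and the difference was -1.16 ± 0.10 (SE, adjusted p = 2.9e-06), or -1.35 after length correction. Of the 12 iron genes tested, 2 were called higher and 2 lower, against 12.4% and 7.76% of all tested genes. Those called higher numbered 1 without any 1 library other than PDS control replicate 1, Phen-DC3 replicate 3 and Phen-DC3 control replicate 3.

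In the NRF2 and antioxidant list most calls were lower. Of 28 tested, 11 were called lower and 1 higher, with a median of -0.433, and 7 and 1 after length correction, with a median of -0.263. PDS lowered 8 and raised 0, and Phen-DC3 lowered 0 and raised 2. The genes called lower numbered 7 without PDS replicate 3 and 6 without Phen-DC3 replicate 1. Nqo1, a quinone reductase and common NRF2 target, had 134, 125 and 119 CPM with PDS and 185, 184 and 187 CPM in PDS controls, and 194, 187 and 174 CPM with Phen-DC3 and 169, 143 and 151 CPM in Phen-DC3 controls. All 3 PDS libraries were the lowest, and the difference was -0.82 ± 0.12 (SE, adjusted p = 0.00043). Hmox1, the haem oxygenase, differed by -0.57 ± 0.10 (SE, adjusted p = 0.0017). For Gpx1, a glutathione peroxidase, the difference was -0.87 ± 0.16 (SE, adjusted p = 0.002). Prdx6, a peroxiredoxin, was called in both sets, falling with PDS by 0.24 (adjusted p = 0.017) and rising with Phen-DC3 by 0.21 (adjusted p = 0.036), with a difference of -0.45 ± 0.08 (SE, adjusted p = 0.0022).

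Of 32 genes of cholesterol and fatty acid synthesis, 7 were called lower and 2 higher, with a median of -0.041, and 9 and 0 after length correction, with a median of -0.193. Those called lower numbered 4 without PDS replicate 3, Phen-DC3 replicate 1 or 2, or Phen-DC3 control replicate 1. The sterol enzymes Fdps and Lss differed by -0.64 ± 0.11 (SE, adjusted p = 0.0012) and by -0.41 ± 0.10 (SE, adjusted p = 0.0097). Both fell with PDS, Fdps by 0.46 and Lss by 0.44, and their Phen-DC3 effects of 0.17 and -0.03 were not called.

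Proteases and their regulators were tested for 35 genes, of which 13 were called higher and 1 lower, with a median of 0.175. After length correction 6 were higher and 3 lower. PDS raised 8 and lowered 3, and Phen-DC3 raised 0 and lowered 3. Those called higher came to 7 on leaving out PDS control replicate 3 or Phen-DC3 control replicate 1 or 2, and to 8 on leaving out PDS replicate 2 or 3 or Phen-DC3 replicate 1 or 2. Plau, the urokinase that activates plasminogen, had 25.8, 25.0 and 20.9 CPM with PDS and 6.41, 6.78 and 6.71 CPM in PDS controls. It had 6.79, 5.86 and 7.07 CPM with Phen-DC3 and 6.04, 6.50 and 5.14 CPM in Phen-DC3 controls. The other 9 libraries lay close together below the PDS libraries, and the difference was 1.69 ± 0.20 (SE, adjusted p = 6.3e-05), or 1.75 after length correction.

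Adamts5, the main aggrecanase, fell with both compounds, by 0.77 with PDS (adjusted p = 1.6e-05) and by 0.31 with Phen-DC3 (adjusted p = 0.042, and 0.15 after length correction). It had 45.9, 51.0 and 49.1 CPM with PDS and 85.9, 84.0 and 79.7 CPM in PDS controls, and 66.6, 84.5 and 82.2 CPM with Phen-DC3 and 93.5, 108 and 87.3 CPM in Phen-DC3 controls. Its fall was the larger with PDS, with a difference of -0.47 ± 0.13 (SE, adjusted p = 0.018) that was not called without Phen-DC3 replicate 2 (adjusted p = 0.055). Mmp3, stromelysin, and Mmp13, a collagenase, differed by 0.33 ± 0.12 (SE, adjusted p = 0.047) and by 0.97 ± 0.31 (SE, adjusted p = 0.044). Each call was lost on leaving out any 1 of 10 of the 12 libraries, with adjusted p-values up to 0.12, and Mmp13 was not called after length correction (adjusted p = 0.068).

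Matrix genes split. Of 24 fibrillar and elastic matrix genes, 8 were called higher and 3 lower, against 12.4% and 7.76% of all tested genes, with a median of 0.181. After length correction these were 2 and 4, against 6.85% and 6.47%, with a median of -0.068. Those called lower came to 0 on leaving out PDS replicate 1 or 3, PDS control replicate 1 or 2, or Phen-DC3 replicate 2, and to 1 on leaving out PDS replicate 2, Phen-DC3 replicate 1 or Phen-DC3 control replicate 2. Loxl2, which crosslinks collagen, had 212, 226 and 211 CPM with PDS and 133, 130.0 and 124 CPM in PDS controls, and 117, 116 and 107 CPM with Phen-DC3 and 119, 110.2 and 119.6 CPM in Phen-DC3 controls. The PDS libraries were the highest, with a difference of 0.79 ± 0.10 (SE, adjusted p = 0.00012) that stayed at 0.78 after length correction. The long genes Fn1, fibronectin, and Fbn1, fibrillin, fell with Phen-DC3 by 0.58 and 0.56 (adjusted p = 0.011 for each) and had PDS effects of 0.17 and 0.22. Their differences of 0.76 ± 0.16 (SE, adjusted p = 0.0047) and 0.78 ± 0.15 (SE, adjusted p = 0.003) came to 0.23 and 0.18 after length correction and were not called there.

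Among 23 cartilage-type matrix genes, 6 were called higher and 0 lower, against 12.4% and 7.76% of all tested genes. After length correction 2 were higher and 4 lower, against 6.85% and 6.47%. Those called higher came to 2 on leaving out Phen-DC3 replicate 1 or Phen-DC3 control replicate 2, and to 3 on leaving out PDS replicate 3, Phen-DC3 replicate 2 or Phen-DC3 control replicate 1. Vcan, versican, a large proteoglycan, had 165, 183 and 201 CPM with PDS and 134, 108 and 113 CPM in PDS controls, and 93.7, 103 and 131 CPM with Phen-DC3 and 218, 218 and 132 CPM in Phen-DC3 controls. It rose with PDS and fell with Phen-DC3, and the difference was 1.42 ± 0.25 (SE, adjusted p = 0.0033), or 0.73 after length correction (adjusted p = 0.0033), with the Phen-DC3 groups close to touching at replicate 3 of each. Col2a1, the cartilage collagen, fell with PDS by 0.82 (adjusted p = 0.0021), and its Phen-DC3 effect was -0.24 ± 0.15 (SE, adjusted p = 0.31). Its difference was -0.58 ± 0.22 (SE, adjusted p = 0.062) with a 95% interval of -1.04 to -0.13, and -0.85 after length correction (adjusted p = 0.02). The cartilage transcription factor Sox9 differed by 0.71 ± 0.21 (SE, adjusted p = 0.022), and by 0.56 after length correction (adjusted p = 0.074). Its call was also lost on leaving out PDS replicate 3, PDS control replicate 3, Phen-DC3 replicate 1 or 2, or Phen-DC3 control replicate 2 (adjusted p from 0.055 to 0.066), with the 12 libraries alone (adjusted p = 0.055) and with the replicate number as a block (adjusted p = 0.069).

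Of 27 TGF-beta targets, ligands and contractile genes, 7 were called higher and 6 lower, against 12.4% and 7.76% of all tested genes. The median was 0.003. Those called higher came to 4 on leaving out PDS replicate 3, Phen-DC3 replicate 1 or Phen-DC3 control replicate 1. Those called lower came to 2 on leaving out Phen-DC3 replicate 1, to 3 on leaving out PDS replicate 3, PDS control replicate 3 or Phen-DC3 control replicate 1 or 2, and to 9 without Phen-DC3 control replicate 3. Bmp2, a ligand that drives bone and cartilage formation, had 34.0, 32.2 and 33.3 CPM with PDS and 12.8, 11.7 and 12.04 CPM in PDS controls, and 13.8, 14.2 and 14.0 CPM with Phen-DC3 and 18.6, 13.5 and 12.4 CPM in Phen-DC3 controls. The PDS libraries were the highest of the 12, and the difference was 1.53 ± 0.22 (SE, adjusted p = 0.00048). Inhba, the activin A subunit, differed by 1.37 ± 0.23 (SE, adjusted p = 0.0021), and Skil, a SMAD co-repressor, by 1.11 ± 0.19 (SE, adjusted p = 0.0012). Skil was called in both sets, in opposite directions. Ccn3, a matricellular protein of the CCN family, had 385, 400.1 and 398 CPM with PDS and 798, 768 and 798 CPM in PDS controls, and 848, 943 and 1020.0 CPM with Phen-DC3 and 1016, 1065 and 955 CPM in Phen-DC3 controls. It fell with PDS by 1.00 (adjusted p = 2.6e-08), and the difference was -0.89 ± 0.10 (SE, adjusted p = 3.3e-05). In the Wnt and IGF list, 3 of 25 were called higher and 6 lower, against 12.4% and 7.76% of all tested genes. Those called lower included the Wnt agonist Rspo1, at -1.18 ± 0.17 (SE, adjusted p = 5e-04). Its receptor Lgr5 was also called lower, at -0.77 ± 0.20 (SE, adjusted p = 0.011). The Lgr5 call was lost with the replicate number as a block (adjusted p = 0.051). Without PDS control replicate 3, Phen-DC3 replicate 1 or Phen-DC3 control replicate 1 or 2 the genes called higher numbered 1, and without PDS replicate 3 or Phen-DC3 replicate 2 those called lower numbered 3.

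Chromatin regulators were often called higher for the difference, with more own-control calls for Phen-DC3 than for PDS before length correction. Of 50 tested, 30 were called higher and 0 lower, with a median of 0.503. PDS raised 2 and lowered 0, with a median of 0.156, while Phen-DC3 raised 0 and lowered 24, with a median of -0.366. The median gene model of the list was 6708.5 bp. After length correction 7 were higher and 3 lower, with a median of 0.095. Over all tested genes, Phen-DC3 lowered 25 after that correction and 0 with the 12 libraries alone, so its 24 calls in this list rest on the uncorrected fit. The genes called higher numbered 17 without Phen-DC3 replicate 1, 18 without PDS replicate 3 or Phen-DC3 control replicate 2, and 19 without Phen-DC3 control replicate 1.

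Smchd1, which helps to silence the inactive X chromosome, had 17.8, 19.9 and 26.7 CPM with PDS and 17.4, 12.7 and 17.6 CPM in PDS controls, and 14.8, 13.3 and 17.4 CPM with Phen-DC3 and 28.4, 35.0 and 23.9 CPM in Phen-DC3 controls. It fell with Phen-DC3 by 0.94 (adjusted p = 0.011), and its difference of 1.38 ± 0.23 (SE, adjusted p = 0.0015) was 0.99 after length correction (adjusted p = 0.005). The acetyltransferase Ep300 differed by 1.25 ± 0.25 (SE, adjusted p = 0.0033), and by 1.20 after correction. Setd5, a SET-domain protein, differed by 0.68 ± 0.12 (SE, adjusted p = 0.0016), but by 0.23 after correction (adjusted p = 0.089).

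Short housekeeping genes showed the reverse. Of 73 cytosolic ribosomal proteins, 37 were called lower and 0 higher, with a median of -0.418, and 12 and 0 after length correction, with a median of -0.194. Phen-DC3 raised 18 of them and lowered 0, while PDS raised 0 and lowered 1. Of 53 nuclear subunits of oxidative phosphorylation, 27 were called lower and 0 higher, with a median of -0.449, and 11 and 0 after correction. Phen-DC3 raised 19 of these and lowered 0, while PDS raised 0 and lowered 2. The Phen-DC3 calls in both lists are without length correction. With it, Phen-DC3 raised 22 of all tested genes, and with the 12 libraries alone 0. Of 31 proteasome subunits, 8 were called lower and 0 higher, and 2 and 0 after correction. The counts called lower were 15 to 45 for ribosomal proteins, 15 to 36 for oxidative phosphorylation and 3 to 13 for the proteasome without 1 library, lowest without Phen-DC3 replicate 1 for ribosomal proteins and the proteasome and without PDS replicate 3 for oxidative phosphorylation.

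The control groups were part of this contrast. The median of PDS controls minus Phen-DC3 controls was 0.225 for ribosomal proteins and -0.287 for chromatin regulators, and that of PDS cells minus Phen-DC3 cells was -0.22 and 0.239. Rplp0, a protein of the ribosomal stalk, had 3746, 3654 and 3495 CPM with PDS and 3767, 4169 and 4127 CPM in PDS controls, and 4263, 3751 and 4015 CPM with Phen-DC3 and 2908, 3258 and 3363 CPM in Phen-DC3 controls. Its difference was -0.48 ± 0.10 (SE, adjusted p = 0.0034), and -0.26 after length correction (adjusted p = 0.044). Ndufa2, a subunit of complex I, differed by -0.67 ± 0.14 (SE, adjusted p = 0.0037), and by -0.33 after correction (adjusted p = 0.042). Ribosomal protein genes have many processed pseudogenes, so the counting could have split their reads. None of 13 mitochondrially encoded mRNAs was called by edgeR's quasi-likelihood test with all libraries, with a median of 0.612, while 7 were higher and 0 lower at an unadjusted p under 0.05 and DESeq2 called 4 higher. Without Phen-DC3 control replicate 3, 9 were called higher.

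**Figure D4:**
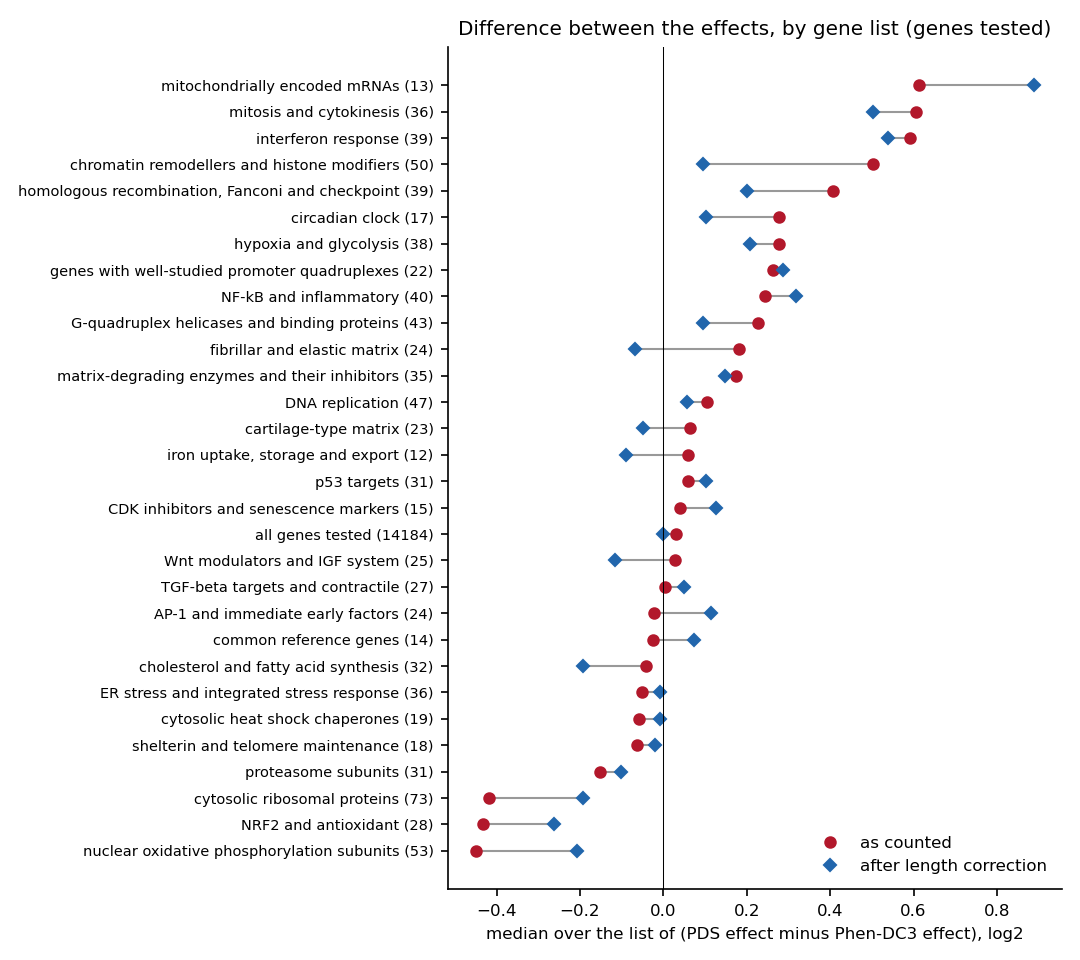
Median over each gene list of the PDS effect minus the Phen-DC3 effect (x axis, log2), with the number of tested genes in parentheses, as counted (circles) and after length correction (diamonds). Mitosis (0.606 and 0.502) and the interferon response (0.592 and 0.539) changed little with the correction, whereas chromatin regulators had 0.503 as counted and 0.095 after correction.

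Proteins that bind or unwind G-quadruplexes and genes with well-studied promoter quadruplexes were looked at because both compounds target that structure. Of 43 helicases and binding proteins, 11 were called higher and 0 lower, with a median of 0.228, and 6 and 1 after length correction. PDS raised 3 and Phen-DC3 lowered 5. The count called higher was 5 without PDS replicate 3, 6 without Phen-DC3 replicate 2 and 7 without Phen-DC3 control replicate 2. Top2a, the topoisomerase of dividing cells, had 105, 104 and 116 CPM with PDS and 84.5, 72.5 and 82.9 CPM in PDS controls, and 55.7, 69.1 and 84.8 CPM with Phen-DC3 and 103, 103 and 83.6 CPM in Phen-DC3 controls. It rose with PDS by 0.44 (adjusted p = 0.025) and fell with Phen-DC3 by 0.47 (adjusted p = 0.026), with a difference of 0.91 ± 0.17 (SE, adjusted p = 0.0023). The helicases Wrn, Brip1 and Blm differed by 0.93 ± 0.21 (SE, adjusted p = 0.007), by 1.02 ± 0.25 (SE, adjusted p = 0.011) and by 0.72 ± 0.16 (SE, adjusted p = 0.0066), and Blm was not called after length correction (adjusted p = 0.058). Atrx, a chromatin remodeller that limits quadruplexes, fell with Phen-DC3 by 1.02 (adjusted p = 0.016), and its difference was 0.83 ± 0.30 (SE, adjusted p = 0.06) with a 95% interval of 0.20 to 1.47.

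Of 22 genes with well-studied promoter quadruplexes, 3 were called higher and 1 lower, shares near or below the 12.4% and 7.76% of all tested genes. The median was 0.264, and after length correction 4 were higher and 1 lower. Those called higher came to 2 on leaving out PDS replicate 2 or 3, PDS control replicate 3, Phen-DC3 replicate 1 or 2, or Phen-DC3 control replicate 1. Without Phen-DC3 replicate 3 or Phen-DC3 control replicate 3, 6 were called higher, and without any 1 of 9 other libraries 0 were lower. Ccnd1, the cyclin of the G1 phase, had 1247, 1233 and 1199 CPM with PDS and 782, 815 and 778 CPM in PDS controls, and 835, 716 and 725 CPM with Phen-DC3 and 745, 744 and 759 CPM in Phen-DC3 controls. The PDS libraries were the highest, and the difference was 0.61 ± 0.10 (SE, adjusted p = 0.00062). Myc, the growth-promoting transcription factor whose promoter quadruplex is the best known, had 22.0, 23.6 and 23.7 CPM with PDS and 18.6, 18.9 and 18.8 CPM in PDS controls, and 18.0, 20.3 and 19.3 CPM with Phen-DC3 and 20.6, 18.5 and 18.1 CPM in Phen-DC3 controls. Its difference was 0.29 ± 0.14 (SE, adjusted p = 0.14) with a 95% interval of 0.00 to 0.57, and neither effect was called. Among 24 early-response factors, 4 were called higher and 0 lower, against 12.4% and 7.76% of all tested genes. The count called higher was 2 without Phen-DC3 replicate 1 or Phen-DC3 control replicate 2. Of these factors, Jun differed by 0.94 ± 0.14 (SE, adjusted p = 0.00062). Of 17 circadian clock genes, 4 were called higher and 1 lower, against the same shares of all tested genes. The clock genes were led by the repressor Bhlhe40 at 0.72 ± 0.11 (SE, adjusted p = 0.00051).

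In the ER stress list, 7 of 36 were called higher and 4 lower, against 12.4% and 7.76% of all tested genes. After length correction these were 3 and 4, against 6.85% and 6.47%. Those called higher came to 3 on leaving out PDS replicate 3, Phen-DC3 replicate 1 or 2, or Phen-DC3 control replicate 1 or 2, and to 4 on leaving out PDS control replicate 2. Those called lower came to 2 on leaving out PDS replicate 2 or 3, PDS control replicate 2 or 3, or Phen-DC3 replicate 2, and to 10 without Phen-DC3 control replicate 3. Common reference genes were called at 1 of 14 higher and 3 lower, the share lower being above the 7.76% of all tested genes. The reference genes called lower numbered 3 without Phen-DC3 replicate 3 or Phen-DC3 control replicate 3. They numbered 2 without any other 1 library. Lists with few calls were cytosolic heat shock chaperones, with 1 of 19 higher and 1 lower, telomere maintenance, with 1 of 18 higher and 0 lower, and senescence markers, with 1 of 15 higher and 0 lower.

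Further genes with a large negative difference belonged to no list. Tril, a co-receptor of Toll-like receptor 4, had 10.4, 12.6 and 10.0 CPM with PDS and 27.1, 31.5 and 23.4 CPM in PDS controls, and 24.0, 28.2 and 27.7 CPM with Phen-DC3 and 27.0, 29.3 and 27.9 CPM in Phen-DC3 controls. It fell with PDS by 1.31 (adjusted p = 1.9e-06), and the difference was -1.24 ± 0.18 (SE, adjusted p = 0.00036). C1qtnf7, a secreted protein of the C1q and TNF family, differed by -1.21 ± 0.17 (SE, adjusted p = 0.00035). Selenoh, a nuclear selenoprotein, differed by -1.31 ± 0.25 (SE, adjusted p = 0.0045). The most negative difference among genes named by size was that of AABR07049408.1, a gene model without a description in the deposited table, at -2.01 ± 0.28 (SE, adjusted p = 0.00035). It had 2.19, 3.19 and 3.82 CPM with PDS and 14.8, 12.6 and 14.4 CPM in PDS controls, and 15.3, 14.6 and 19.8 CPM with Phen-DC3 and 22.6, 17.4 and 15.9 CPM in Phen-DC3 controls.

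Genes called in both sets were few. They numbered 113, which is 9.84% of the PDS calls and 9.95% of the Phen-DC3 calls, near the 8.01% and 8.09% of all tested genes that Phen-DC3 and PDS changed. Of these, 84 were called in opposite directions and 29 in the same direction. Among the opposite genes, 70 rose with PDS and fell with Phen-DC3 and 14 did the reverse. Of all calls, 728 of 1148 rose with PDS and 825 of 1136 fell with Phen-DC3, which by itself favours the first kind. Over the 728 genes that PDS raised, the median Phen-DC3 effect was -0.093, and 237 of them had a Phen-DC3 effect above 0. Over the 420 that PDS lowered it was 0.087, and 260 had an effect above 0, against 6910 of all 14184. Across genes, which are not independent replicates, Pearson's r between the effects was -0.192 and Spearman's rank correlation -0.325, and -0.168 and -0.289 after length correction. These overlaps rest on the Phen-DC3 calls, and with the 12 libraries fitted alone 0 genes were called in both sets. After length correction 5 genes were called in opposite directions and 0 in the same direction.

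Of the 6 opposite genes with the smallest p for the difference, Epas1 is given above. Ramp3, which escorts receptors for adrenomedullin to the membrane, had 24.1, 22.8 and 21.0 CPM with PDS and 41.0, 45.0 and 43.2 CPM in PDS controls, and 55.3, 51.1 and 46.9 CPM with Phen-DC3 and 29.7, 38.2 and 44.8 CPM in Phen-DC3 controls. It fell with PDS by 0.93 (adjusted p = 3.8e-05), rose with Phen-DC3 by 0.44 (adjusted p = 0.03), and differed by -1.37 ± 0.17 (SE, adjusted p = 1e-04). The Phen-DC3 libraries were all above their controls, and the PDS libraries were the lowest of the 12. Mical2, an enzyme that oxidises actin, had 37.1, 40.9 and 37.6 CPM with PDS and 23.9, 24.8 and 22.1 CPM in PDS controls, and 19.3, 21.3 and 22.2 CPM with Phen-DC3 and 25.0, 24.9 and 25.7 CPM in Phen-DC3 controls. Neither pair of groups overlapped, and the difference was 0.97 ± 0.11 (SE, adjusted p = 5.4e-05). Osbpl3, a lipid-binding protein, differed by 1.05 ± 0.14 (SE, adjusted p = 0.00018), and Tmem131, a membrane protein needed for collagen secretion in worms and flies, by 1.14 ± 0.16 (SE, adjusted p = 0.00035). The gene model AABR07068316.1, which the deposited table describes as the collagen type VI alpha 3 chain, differed by 1.26 ± 0.17 (SE, adjusted p = 0.00028). The difference kept its direction and call at all 6 after length correction, at -1.18 for Ramp3 and between 0.62 and 0.89 for the others. PDS still changed all 6, but none kept its Phen-DC3 call. The corrected Phen-DC3 effect was -0.09 for Mical2, -0.18 for Osbpl3, -0.22 for Epas1, -0.40 for Tmem131, 0.29 for Ramp3 and -0.075 for AABR07068316.1 (adjusted p from 0.055 to 0.75). Of all 84 opposite genes, the difference was called in the same direction with the correction at 72, while PDS still changed 67 and Phen-DC3 3.

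A gene was taken to respond alike where both compounds changed it in the same direction and the 95% interval of the difference lay inside 0.5 on either side of 0 on the log2 scale. This held for 18 of the 29 genes called in the same direction, 8 of them higher with both compounds and 10 lower. Of all tested genes, 0.127% met these conditions, and 23.8% had an interval inside the margin whether or not they changed. Cdkn1a, the p21 protein that arrests the cell cycle, had 405, 409 and 393 CPM with PDS and 310.0, 319 and 328 CPM in PDS controls. It had 376, 373 and 315 CPM with Phen-DC3 and 272, 289 and 315 CPM in Phen-DC3 controls. It rose with PDS by 0.34 (adjusted p = 0.0054) and with Phen-DC3 by 0.28 (adjusted p = 0.026), and the interval of the difference was -0.16 to 0.27. The Phen-DC3 groups met at 1 value, since replicate 3 of each was 315 CPM.

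Cdk1, the kinase that drives entry into mitosis, had 263, 249.9 and 241 CPM with PDS and 185, 191 and 199.7 CPM in PDS controls, and 211, 193 and 204 CPM with Phen-DC3 and 162, 161 and 165 CPM in Phen-DC3 controls. Neither pair of groups overlapped, and the interval of the difference was -0.14 to 0.28. Ldha, which makes lactate, rose by 0.36 with PDS and 0.22 with Phen-DC3, with an interval of -0.04 to 0.34. For the early-response gene Ier3 the effects were 0.46 and 0.32, and for the neutrophil chemokine Cxcl2 0.47 and 0.33. The histone chaperone Asf1b rose by 0.27 and 0.38, the pyrimidine enzyme Dhodh by 0.24 and 0.40, and the uridine phosphorylase Upp1 by 0.21 and 0.21, each with PDS and Phen-DC3 in that order.

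**Figure D5:**
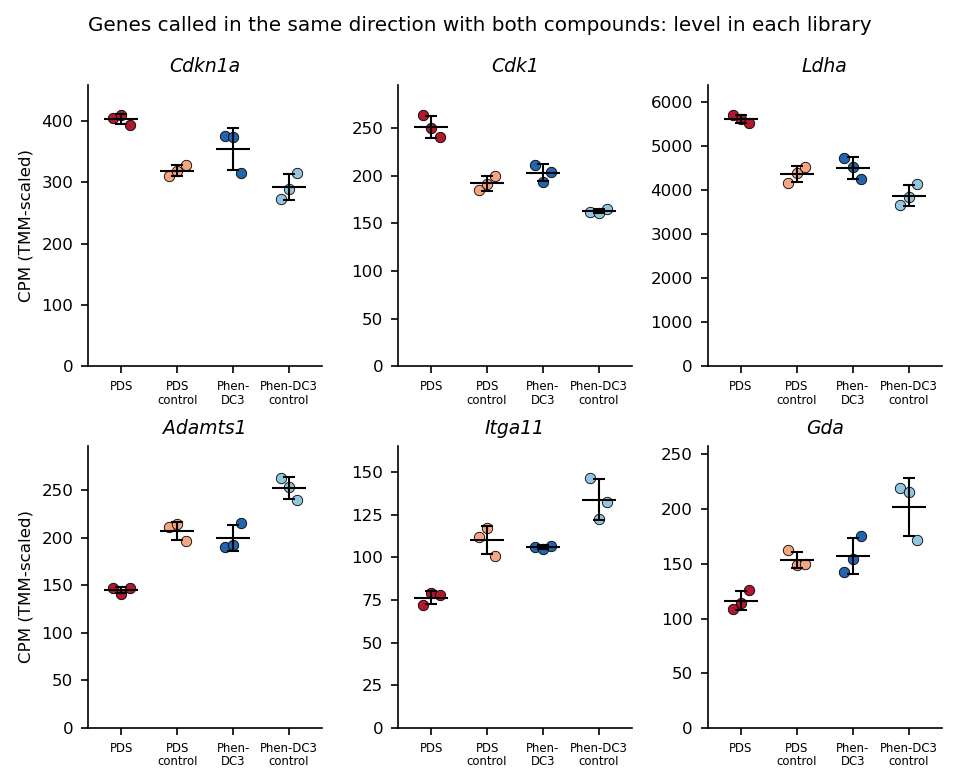
Level of 6 genes called in the same direction with both compounds in each library (y axis, CPM on TMM-scaled library sizes) by group, with the mean and SD of 3 libraries as black lines. Cdkn1a, Cdk1 and Ldha were higher and Adamts1, Itga11 and Gda lower with each compound than in its own controls, with Phen-DC3 and its controls meeting or overlapping for Cdkn1a and Gda.

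On the falling side, Adamts1, a protease that cleaves versican and aggrecan, had 147, 141 and 146 CPM with PDS and 211, 214 and 196 CPM in PDS controls, and 191, 193 and 215 CPM with Phen-DC3 and 262, 254 and 239.5 CPM in Phen-DC3 controls. It fell by 0.52 with PDS (adjusted p = 2.1e-05) and by 0.34 with Phen-DC3 (adjusted p = 0.011), and the interval of the difference was -0.37 to 0.00. Itga11, a collagen-binding integrin, fell by 0.52 and 0.34, and Gda, the guanine deaminase, by 0.40 and 0.36. Col11a1, a fibrillar collagen chain of cartilage, fell by 0.34 and 0.41, and Dlc1, a regulator of the actin cytoskeleton, by 0.30 and 0.42. Arid5b, Carmil1 and Map4k3, a DNA-binding factor, a regulator of actin capping and a kinase, fell by 0.33 to 0.48 with PDS and by 0.35 to 0.47 with Phen-DC3.

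Likeness held less firmly than difference. After length correction 0 genes met the definition, since Phen-DC3 then changed few genes. Adamts1 and Itga11 were then called different, at -0.43 (adjusted p = 0.0024) and -0.46 (adjusted p = 0.012), as were Col11a1 and Dlc1, whose sign turned to -0.43 and -0.37. Ldha, Ier3 and Cxcl2 were also called different then, at 0.26, 0.33 and 0.38. So were Arnt2 and Scd, alike genes not named above that fell with both compounds, at -0.54 and -0.41. The difference was not called after correction at the remaining alike genes. Genes alike numbered 3 with a margin of 0.3 and 28 with a margin of 1, and 0 to 55 without 1 library, 0 without Phen-DC3 control replicate 1 and 55 without Phen-DC3 control replicate 3.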

How the data were processed

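RNA was sequenced from cultured rat nucleus pulposus cells in 18 libraries, of which the 12 of the PDS, PDS control, Phen-DC3 and Phen-DC3 control groups were compared, grouped by their titles. The values are raw counts per gene as deposited, for 33898 genes with symbols, positions and gene model lengths, per the file headers. The submitters' processing notes name CASAVA, HISAT2 and featureCounts 1.5.0-p3. No source used here names the genome build, annotation or strandedness, so reads of overlapping or antisense genes and of near-identical copies may be split.

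The analysis used edgeR 4.0.16 in R 4.3.3. The filter on low counts was filterByExpr, which left 14184 genes, 706 of them with no symbol, and TMM factors scaled the libraries. One mean for each of 6 groups was fitted by robust quasi-likelihood to 18 libraries (12 residual degrees of freedom). The two-sided F-test gave each compound's effect and the interaction (PDS minus its controls, less Phen-DC3 minus its controls), adjusted by Benjamini-Hochberg over all genes at 0.05. SEs and 95% intervals came from the F statistics. Length correction removed from each library a spline of log gene length with 4 degrees of freedom. Without molecular identifiers, PCR copies count as reads, so the true error exceeds counting error. The scripts were tested on simulated data.

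Genes were named by rule. They were the 10 largest differences in each direction called with and without length correction at a mean log2 CPM of at least 3, the alike genes with the largest smaller effect, the 6 opposite genes with the smallest p, up to 4 genes of each list by p, and a fixed set; the text names part of them. Among 1075 list symbols, 1040 were found as written and 3 under another name. The members and lists were chosen with earlier results of these data known. The alternatives were other normalisations, count filters, DESeq2 1.42.0, voom with weights per group (limma 3.58.1), the 12 libraries alone, length correction, a replicate block and leaving out each library. Length correction combined with the 12 libraries or with voom was added after seeing the data. Promoter sequences are RefSeq's, in GRCr8, matched by symbol.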

Additional observations from a re-analysis of the deposited data

Results flagged for a closer look

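The effects of PDS and Phen-DC3 under the same treated-minus-control contrast differed by the interaction test at 1761 genes called higher and 1101 called lower. Among the 6 genes called in opposite directions with the smallest p, the log2 difference was 0.973 for Mical2, 1.195 for Epas1, -1.371 for Ramp3, 1.052 for Osbpl3, 1.264 for AABR07068316.1 and 1.143 for Tmem131. Groups of 3 libraries are too small for a test of single outlying samples.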

How the results depend on the processing

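Of 107 genes named or considered by rule, 88 were called, and 58 of these kept the call under every setting run. RLE or upper-quartile factors and the count filters kept all summary counts within 1.5 times. Length correction gave 971 genes higher for the difference, 22 higher and 25 lower with Phen-DC3, and 0 same, 5 opposite and 0 alike. The 12 libraries alone gave 1132 higher for the difference, 461 higher with PDS, and 0 higher, 0 lower, 0 same, 0 opposite and 0 alike for Phen-DC3 and the overlap. Of the lists, the 12 libraries alone gave 9 higher for recombination, 6 for quadruplex helicases and binding proteins, 4 for ER stress and 3 for cartilage-type matrix. Both together gave 627 higher and 613 lower, with 0 Phen-DC3 calls. DESeq2 gave 836 higher and 1270 lower with Phen-DC3, 66 same, 227 opposite and 45 alike. Voom with weights per group gave 752 lower with PDS, 0 higher and 2 lower with Phen-DC3 and 0 in both sets. With length correction added it gave 784 higher for the difference, 925 lower with PDS and 0 Phen-DC3 calls. Margins of 0.3 and 1 gave 3 and 28 alike.

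Without 1 library, the difference gave 984 to 2416 higher and 463 to 1802 lower, PDS 372 to 867 higher and 191 to 552 lower, and Phen-DC3 0 to 1451 higher and 0 to 1864 lower. Genes called in both numbered 0 to 74 in the same direction, 0 to 354 opposite and 0 to 55 alike. Lowest counts for PDS came without PDS replicate 3, and highest for Phen-DC3 without Phen-DC3 control replicate 3.

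Col11a1 and Dlc1 turned negative with length correction, at -0.43 and -0.37. Col11a1 was -0.43 with the block too, -0.41 with the 12 libraries and -0.43 with voom, and Dlc1 -0.35 and -0.37 with the last 2. The cause was not tested.

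Same-numbered libraries did not deviate together. Their correlations were -0.039, 0.17 and 0.012 in the PDS set and -0.225, -0.062 and -0.409 in the Phen-DC3 set, so the numbers were not taken as pairs. With a replicate block, 805 genes were higher and 356 lower for the difference, 378 and 209 for PDS, and 1 and 0 for Phen-DC3, with 0 same, 0 opposite and 0 alike. The block with length correction gave 391 and 331 for the difference, 424 higher with PDS, and 1 and 0 for Phen-DC3.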
